A study of Bos taurus with 46 samples.

Results

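The genes described here encode the glucocorticoid receptor and 9 products that its hormone is known to regulate, a common readout of stress hormone action on circulating leukocytes. The 10 genes were *NR3C1*, *FKBP5*, *TSC22D3*, *PER1*, *DUSP1*, *ZBTB16*, *KLF9*, *SGK1*, *CXCR4* and *DDIT4*. They were taken by symbol from a count table of 30675 bovine RefSeq genes, of which 25404 had a read, and all 10 were present and passed the filter on low counts.

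Blood was drawn from the tail vein of 23 pregnant heifers, Angus crossbred animals of breeding age, on gestation D55 and again on D105, and the leukocytes of the buffy coat were sequenced after red cell lysis (46 libraries, 1 per heifer and day). The AI group (n = 8) carried fetuses conceived by artificial insemination and served as controls. The IVP-Normal group (n = 6) and the IVP-LOS group (n = 9), labelled ARTnormal and ARTLOS, had received embryos produced in vitro. LOS is large offspring syndrome, a fetal overgrowth, and an IVP fetus was put in the LOS group when its weight at D105 reached the upper end of the AI weights. Group membership is therefore a property of the fetus, while the RNA is the dam's. The labels name no glucocorticoid treatment and no stress group, and no cortisol value was used here. The study's supplement places the D55 draws in winter and the D105 draws in summer, while its discussion names autumn, spring and summer, so the season of each draw is not settled here and its part in the differences between days was not tested.

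Cortisol enters the cell, binds the glucocorticoid receptor encoded by *NR3C1* and frees it from a chaperone complex that contains FKBP51, the product of *FKBP5*. The receptor then moves to the nucleus and turns on genes near its binding sites, among them *FKBP5* itself, which dampens the receptor in return, the anti-inflammatory genes *TSC22D3* (GILZ) and *DUSP1*, and the clock gene *PER1*. In cattle, as in other mammals, glucocorticoids also raise the number of neutrophils in blood, so a leukocyte sample can differ in its cells as well as in the RNA each cell holds. In bulk RNA, fewer cells of a type and less RNA per cell cannot be told apart.

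Reads on genes ranged from 18692653 to 24502012 per library. In these libraries *NR3C1* had 1509 to 3297 reads and *FKBP5* 2132 to 16592, whereas the 2 least sequenced of the 10 genes had 21 to 400 reads (*KLF9*) and 72 to 316 reads (*ZBTB16*), and their values carry more counting error. Levels are given as CPM, that is, counts relative to library size after scaling by the trimmed mean of M values (TMM). Levels are compared between heifers and days for 1 gene at a time and not between genes. Sample labels give the name BACKUP to the 17 libraries drawn on D105 from AI and IVP-LOS heifers, and the name New to the other 29. Day and set therefore cannot be told apart within AI and IVP-LOS, and the change within IVP-Normal heifers is the change within 1 set. A total of 3 D105 libraries of the IVP-LOS group stood apart. The library of heifer 637 had a summed neutrophil marker level of 12221 CPM, and those of heifers 604 and 664, the dams of the 2 largest fetuses, had 38.0% and 36.1% of reads outside genes, against 23.2% to 30.6% in the other 44 libraries. Calls over all heifers and the main differences of the IVP-LOS group are given with and without them. The correlations were not repeated without heifer 637.

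The question put to these genes was whether their levels differed between D55 and D105, between dams of AI, IVP-Normal and IVP-LOS fetuses, and from heifer to heifer. Over the 23 heifers, 6 of the 10 genes were higher on D105 and none was lower (edgeR quasi-likelihood test, FDR at most 0.05). They were *SGK1*, *CXCR4*, *DUSP1*, *FKBP5*, *PER1* and *TSC22D3*. In the same comparison 20.5% of the 16487 tested genes were called, 11.7% as higher and 8.76% as lower on D105. The median log2 difference of the 10 genes was 0.53, against -0.02 over all tested genes. The same 6 genes were called without heifer 637, without heifers 604 and 664, and in each of the 23 fits that left out 1 heifer.

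**Figure D1:**
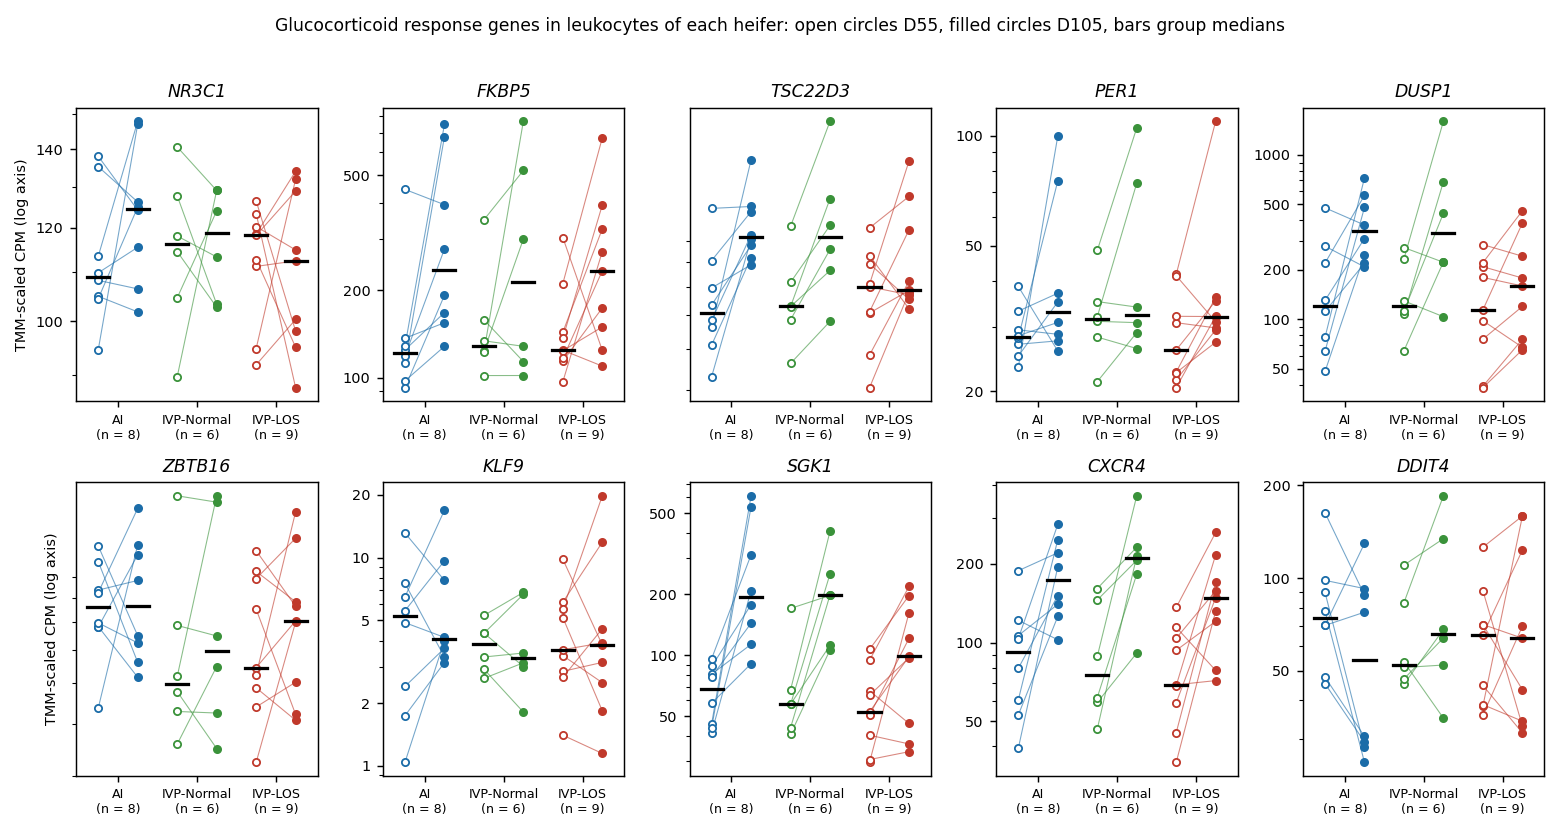
Level of each of the 10 genes in TMM-scaled CPM (log axis) in every heifer, by treatment group; open circles are D55, filled circles D105, lines join the libraries of 1 heifer and black bars are medians. *SGK1* was higher on D105 in 21 of 23 heifers, *NR3C1* in 11 of 23, and 5 heifers stand apart in *PER1* on D105.

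*NR3C1*, the receptor, was measured at 89.7 to 141 CPM on D55 (median 113.5) and at 87.8 to 148 CPM on D105 (median 115.6). The ranges of the days nearly coincided, and 11 heifers were higher and 12 lower on D105. The log2 difference of D105 over D55 was 0.04 ± 0.06 (SE, n = 23, FDR = 0.69 by edgeR), and no heifer changed by as much as 2-fold. By group the level on D105 ran from 101.8 to 148 CPM in AI (median 124.6), from 102.7 to 129.2 CPM in IVP-Normal (median 118.7) and from 87.8 to 134 CPM in IVP-LOS (median 112.5). The 3 groups overlapped throughout.

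*FKBP5*, the receptor's co-chaperone and one of its best known targets, was measured at 92.4 to 446 CPM on D55 (median 124.5) and at 101.8 to 767 CPM on D105 (median 234). The days overlapped, since only 5 heifers on D105 lay above the highest D55 value, but 18 of 23 heifers were higher on D105 and 11 of them changed by at least 2-fold. The log2 difference was 0.98 ± 0.25 (SE, n = 23, FDR = 0.00402 by edgeR). Single heifers ranged from 0.409 to 6.24 times their own D55 level. On D105 the values of the AI group ran from 128.3 to 747 CPM (median 235), those of IVP-Normal from 101.8 to 767 CPM (median 215) and those of IVP-LOS from 109.7 to 672 CPM (median 234). Each group thus held both low and high heifers.

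*TSC22D3* encodes GILZ, a leucine zipper protein that mediates part of the anti-inflammatory action of glucocorticoids. It was measured at 405 to 1073 CPM on D55 (median 630) and at 581 to 1723 CPM on D105 (median 879). It was higher on D105 in 20 of 23 heifers, in all 8 AI and all 6 IVP-Normal heifers and in 6 of 9 IVP-LOS heifers. The log2 difference was 0.49 ± 0.12 (SE, n = 23, FDR = 0.00201 by edgeR), smaller than that of *FKBP5* and with a smaller standard error.

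*DUSP1* encodes a phosphatase that switches off MAP kinases. It is induced by glucocorticoids and also, within minutes, by many other stimuli. It was measured at 38.4 to 477 CPM on D55 (median 114.15) and at 65.2 to 1607 CPM on D105 (median 242). The days overlapped, 15 of 23 heifers were higher on D105, and single heifers ranged from 0.689 to 9.35 times their own D55 level. The log2 difference was 1.16 ± 0.30 (SE, n = 23, FDR = 0.00398 by edgeR). The highest value belonged to the IVP-Normal heifer 628 on D105.

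*SGK1*, a kinase that regulates ion transport and is a rapid target of glucocorticoids and mineralocorticoids, showed the largest difference between days among the 10 genes. It was measured at 29.7 to 170 CPM on D55 (median 57.5) and at 33.5 to 610 CPM on D105 (median 162). It was higher on D105 in 21 of 23 heifers, and 11 D105 values lay above the highest D55 value. The log2 difference was 1.50 ± 0.24 (SE, n = 23, FDR = 5.4e-06 by edgeR). Both exceptions were the IVP-LOS heifers 557, at 66.9 CPM on D55 and 46.1 CPM on D105, and 604, at 40.4 and 36.6 CPM.

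*CXCR4*, the chemokine receptor that keeps leukocytes in the bone marrow and lymphoid tissue and is raised by glucocorticoids on lymphocytes, was measured at 34.8 to 188 CPM on D55 (median 79.8) and at 71.5 to 365 CPM on D105 (median 170). It was higher on D105 in 21 of 23 heifers, and 10 D105 values lay above the highest D55 value. The log2 difference was 1.02 ± 0.19 (SE, n = 23, FDR = 5.2e-05 by edgeR). The 2 heifers with lower values on D105 were 609 of the AI group, at 121.7 and 102.5 CPM, and 663 of the IVP-LOS group, at 114.5 and 78.2 CPM.

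*PER1*, a clock gene with glucocorticoid receptor sites, was measured at 20.4 to 48.5 CPM on D55 (median 28.4) and at 25.7 to 109.6 CPM on D105 (median 32.0). The medians lay close together, and 15 of 23 heifers were higher on D105. The log2 difference of 0.57 ± 0.18 (SE, n = 23, FDR = 0.0153 by edgeR) came with a split of the D105 values into 18 heifers between 25.7 and 37.1 CPM and 5 heifers between 74.1 and 109.6 CPM.

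*KLF9* and *ZBTB16*, both transcription factors that glucocorticoids induce in many cells, and *DDIT4* (REDD1), an inhibitor of mTORC1 that responds to glucocorticoids and to low energy, were not called. *KLF9* was measured at 1.04 to 13.1 CPM on D55 (median 4.33) and at 1.15 to 19.8 CPM on D105 (median 3.81). *ZBTB16* was measured at 3.23 to 14.1 CPM on D55 (median 6.84) and at 3.48 to 14.1 CPM on D105 (median 7.02). *DDIT4* was measured at 35.9 to 163 CPM on D55 (median 70.1) and at 25.2 to 185 CPM on D105 (median 63.9). The days overlapped almost fully in all 3 genes. Their log2 differences were 0.26 ± 0.28 for *KLF9*, 0.19 ± 0.18 for *ZBTB16* and 0.12 ± 0.23 for *DDIT4* (SE, n = 23), with FDR values from edgeR of 0.565, 0.506 and 0.772. *DDIT4* was spread more widely on D105, with SDs of 31.6 CPM on D55 and 49.0 CPM on D105, a difference in spread that was not tested.

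**Figure D2:**
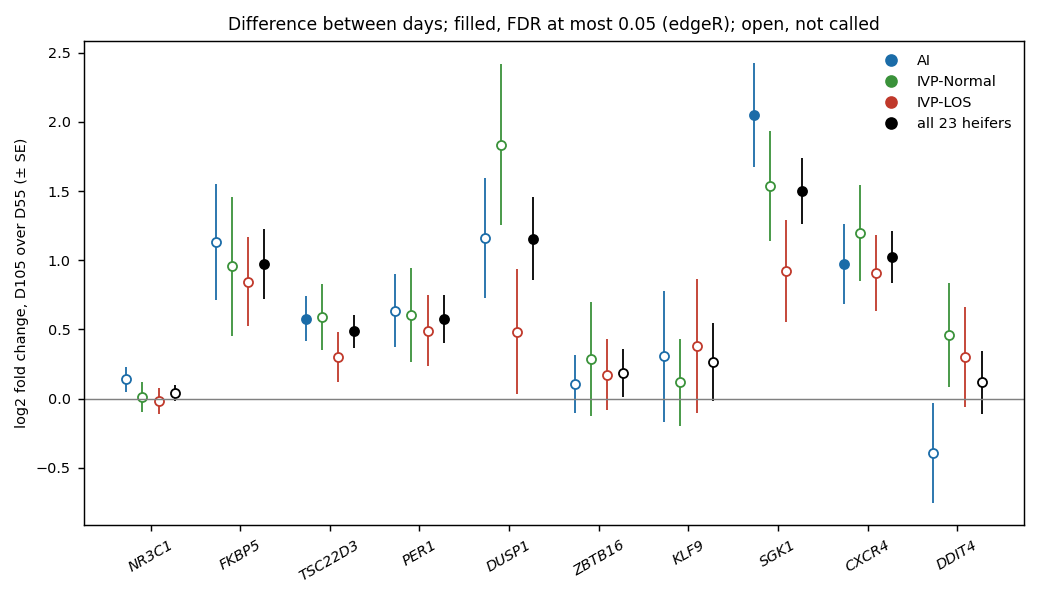
Log2 fold change of D105 over D55 with its standard error for each gene in AI (n = 8), IVP-Normal (n = 6), IVP-LOS (n = 9) and all 23 heifers; filled points have an FDR of at most 0.05 in edgeR's quasi-likelihood test and open points do not. Filled points mark 6 genes over all 23 heifers and 3 within AI, and *NR3C1* lies between -0.02 and 0.14.

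Within the AI group, 3 of the 10 genes were higher on D105 and none was lower, where 9.95% of 15248 tested genes were called and 7.21% were higher. *SGK1* had medians of 68.2 CPM on D55 and 193 CPM on D105 and was higher on D105 in all 8 heifers. Its log2 difference was 2.05 ± 0.38 (SE, n = 8, FDR = 0.00166 by edgeR), and it was called whichever AI heifer was left out. *CXCR4* (0.97 ± 0.29, FDR = 0.0384 by edgeR) and *TSC22D3* (0.58 ± 0.16, FDR = 0.0310 by edgeR) were called with all 8 heifers but lost the call in several fits with 7. *TSC22D3* was not called without heifer 517, 533, 546, 606 or 648, with FDR values from 0.0553 to 0.103. *CXCR4* was not called without heifer 517, 533, 546, 606, 647 or 648, with FDR values from 0.0502 to 0.120. *FKBP5* had the opposite dependence. Heifer 590 had 446 CPM on D55 and 395 CPM on D105, and the log2 difference was 1.13 ± 0.42 with this heifer (FDR = 0.107 by edgeR) and 1.54 without it (FDR = 0.0204 by edgeR). Likewise, *DUSP1* was called without heifer 609, which had the highest D55 level of the group at 477 CPM (log2 difference 1.58, FDR = 0.0243 by edgeR). With the heifer as a replicate block, which compares each animal with itself, 5 genes were called in AI, where the same fit called 17.1% of all genes. They were *CXCR4*, *SGK1*, *TSC22D3*, *DUSP1* (log2 difference 1.42, FDR = 0.0351) and *FKBP5* (1.02, FDR = 0.0395, edgeR).

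Within the IVP-Normal group, whose libraries of both days carry the same set name, none of the 10 genes was called with edgeR's quasi-likelihood test without a block, where 2.45% of 15248 genes were called and 2.27% were higher on D105. At an unadjusted p of 0.05, 4 of the 10 and 13.3% of all genes passed, the 4 being *SGK1*, *CXCR4*, *DUSP1* and *TSC22D3*. *SGK1* was measured at 40.8 to 170 CPM on D55 (median 57.4) and at 106.4 to 408 CPM on D105 (median 198). *CXCR4* was measured at 46.6 to 161 CPM on D55 (median 75.05) and at 91.2 to 365 CPM on D105 (median 211). All 6 heifers were higher on D105 in both genes and in *TSC22D3*. With the replicate block the log2 differences were 1.58 for *SGK1* (FDR = 0.00776), 1.24 for *CXCR4* (FDR = 0.0125) and 0.54 for *TSC22D3* (FDR = 0.0101), so that 3 genes were called by edgeR, where this fit called 5.5% of all genes. Without heifer 669, whose D55 level of *SGK1* was the highest of all libraries of that day, *SGK1* alone was called without a block (log2 difference 2.03, FDR = 0.00934 by edgeR). DESeq2 called 2 of the 10 genes in this group, *SGK1* and *CXCR4*, and 4.91% of all genes. The likelihood ratio test of edgeR called 3, these and *DUSP1*, and 4.02% of all genes.

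Within the IVP-LOS group none of the 10 genes was called, where 0.251% of 15163 genes were called and 0.198% were higher on D105. *CXCR4* had the smallest FDR of the 10. It was measured at 34.8 to 136 CPM on D55 (median 68.9) and at 71.5 to 264 CPM on D105 (median 149) and was higher on D105 in 8 of 9 heifers. Its log2 difference was 0.91 ± 0.27 (SE, n = 9, FDR = 0.154 by edgeR), and DESeq2 called it (FDR = 0.0456) with 2.22% of all genes. *SGK1* was measured at 29.7 to 106.9 CPM on D55 (median 52.6) and at 33.5 to 218 CPM on D105 (median 98.6), with a log2 difference of 0.92 ± 0.37 (SE, n = 9, FDR = 0.297 by edgeR). *FKBP5* differed by 0.84 ± 0.32 (FDR = 0.280 by edgeR). Without heifers 604 and 664 these log2 differences were 0.71, 1.02 and 0.76, and without heifer 637 they were 0.87, 0.85 and 0.75. At an unadjusted p of 0.05 the group held 3 of the 10 genes, *CXCR4*, *FKBP5* and *SGK1*, and 12.6% of all genes.

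That a gene was called in AI and not in IVP-LOS does not show that the change differed. The tests of that difference called none of the 10 genes and 0% of all genes in each of the 3 comparisons of day changes (16096, 16018 and 16181 genes tested with edgeR). At an unadjusted p of 0.05 they held 546, 795 and 134 genes, and 1 of the 10. That 1 was *SGK1*, whose change was smaller in IVP-LOS than in AI by 1.12 ± 0.54 on the log2 scale (the difference was -1.12, unadjusted p = 0.0442, FDR = 0.909 by edgeR). Without heifers 604 and 664 this difference was -1.03 ± 0.52 (SE, unadjusted p = 0.0548 by edgeR), and without heifer 637 it was -1.20 ± 0.54 (unadjusted p = 0.0336 by edgeR). The number of all genes past that p moved with these libraries. For IVP-LOS against AI it was 289 without heifers 604 and 664 and 1669 without heifer 637, and for IVP-LOS against IVP-Normal it was 166 and 423. The difference in change of *DUSP1* between IVP-LOS and IVP-Normal was -1.35 ± 0.76 and that of *FKBP5* between IVP-LOS and AI was -0.29 ± 0.54 (SE). These fits had no replicate block, so their SE and p do not use the pairing of the 2 libraries of a heifer. With the block, 1003, 1674 and 449 of all genes passed an unadjusted p of 0.05 in the 3 comparisons with edgeR, and 0 were called.

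Between treatment groups on the same day, none of the 10 genes was called in any of the 6 comparisons. Over all genes edgeR called 0% as well with all heifers in the fit, of 15350, 15236 and 15452 tested genes on D55 and of 15437, 15283 and 15484 on D105. On D55 none of the 10 passed an unadjusted p of 0.05 either. Of all genes, 1522 (IVP-Normal against AI), 1179 (IVP-LOS against AI) and 802 (IVP-LOS against IVP-Normal) did so with edgeR. The largest log2 difference on that day was -0.50 ± 0.44 (SE), for *KLF9* in IVP-Normal against AI. *NR3C1* differed by at most 0.02 on the log2 scale between groups on D55, with standard errors of 0.08 to 0.11.

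On D105 *SGK1* and *DUSP1* had their lowest median in IVP-LOS, as did *TSC22D3*, *CXCR4*, *NR3C1* and *PER1*. The medians of *FKBP5*, *KLF9*, *ZBTB16* and *DDIT4* were not lowest there. *SGK1* was measured at 90.9 to 610 CPM in AI (median 193), at 106.4 to 408 CPM in IVP-Normal (median 198) and at 33.5 to 218 CPM in IVP-LOS (median 98.6). The groups overlapped, with 6 IVP-LOS heifers within the range of AI and 3 below it. The log2 difference of IVP-LOS against AI was -1.29 ± 0.45 (SE, unadjusted p = 0.0102, FDR = 0.754 by edgeR) and that against IVP-Normal was -0.91 ± 0.42 (unadjusted p = 0.0449, FDR = 0.999 by edgeR). *DUSP1* was measured at 208 to 726 CPM in AI (median 343), at 103.7 to 1607 CPM in IVP-Normal (median 333) and at 65.2 to 457 CPM in IVP-LOS (median 160). Its log2 difference was -1.01 ± 0.40 against AI (SE, unadjusted p = 0.0218, FDR = 0.754 by edgeR) and -1.49 ± 0.56 against IVP-Normal (unadjusted p = 0.0181, FDR = 0.999 by edgeR). Heifers 604 and 664, with 36.6 and 33.5 CPM of *SGK1* and 75.6 and 65.2 CPM of *DUSP1*, were among the lowest 3 in both genes, together with heifer 557. Without 604 and 664 the log2 difference against AI was -1.02 ± 0.43 for *SGK1* (SE, unadjusted p = 0.0292 by edgeR) and -0.76 ± 0.38 for *DUSP1* (unadjusted p = 0.0641 by edgeR), and that against IVP-Normal was -0.65 ± 0.36 and -1.24 ± 0.58 (unadjusted p = 0.0906 and 0.0504 by edgeR). Of these 4 differences, 1 thus passed an unadjusted p of 0.05 without the pair. Without heifer 637 the differences were -1.46 ± 0.46 and -1.26 ± 0.38 against AI (FDR = 0.142 and 0.133 by edgeR) and -1.11 ± 0.42 and -1.78 ± 0.57 against IVP-Normal (FDR = 0.602 and 0.469 by edgeR). The comparisons with IVP-Normal on D105 are also comparisons between the sets New and BACKUP, and these cannot be told apart. At an unadjusted p of 0.05 the 3 comparisons held 1477 (IVP-Normal against AI), 880 (IVP-LOS against AI) and 501 (IVP-LOS against IVP-Normal) of all genes. Without heifers 604 and 664 the latter 2 counts were 483 and 1272, and without heifer 637 they were 2652 and 973. Without heifer 637 edgeR called 10 of 15232 genes in IVP-LOS against AI, all lower and none of them among the 10 described here.

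Neutrophil markers moved with the day. Of the 13 fixed markers, 11 were in the table (*CSF3R* and *FPR1* were not) and 9 were tested over the 23 heifers, of which 8 were higher on D105 (median log2 difference 1.97). *CXCR2*, *CXCR1*, *MMP9* and *LTF* had the smallest p, with log2 differences of 3.59, 4.20, 4.24 and 2.38, whereas *MMP8* and *CAMP* stayed below 1 CPM in every library. The summed marker level ran from 708 to 1567 CPM on D55 and from 1779 to 4785 CPM on D105 in AI, which did not overlap. It ran from 564 to 1154 CPM and from 1126 to 4695 CPM in IVP-Normal, and from 596 to 1579 CPM on D55 and from 408 to 12221 CPM on D105 in IVP-LOS, where the medians were 1125 and 1227 CPM. Heifers 604 (408 CPM) and 664 (480 CPM), with low *SGK1* and *DUSP1*, also had the lowest sums of D105. Over all tested genes 11.7% were called higher and 8.76% lower on D105 in the 23 heifers. Of the other lists, 3 of 4 tested eosinophil markers were higher (*ALOX15*, *SIGLEC8* and *IL5RA*), 2 of 9 monocyte markers were higher (*CD68* and *CD14*), and 1 of 12 T cell markers was higher (*IL7R*). *CR2* was the 1 of 8 B cell markers that was called, as lower, and of 6 NK cell markers *GZMB* was higher and *TBX21* lower. The counts of T cell and B cell markers lay near the shares over all genes. None of the 6 platelet and 3 tested erythroid markers was called. The part of these cell types in the changes of the 10 genes was not tested.

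The 10 genes were next followed from heifer to heifer. On D105 the 5 heifers with high *PER1* were 546 and 647 (AI), 628 and 633 (IVP-Normal) and 512 (IVP-LOS). They came from all 3 groups and both sets of libraries. Their *PER1* levels were 99.8, 75.2, 105, 74.1 and 109.6 CPM. The same 5 heifers held the 5 highest values of *FKBP5*, at 747, 678, 519, 767 and 672 CPM, while the other 18 lay between 101.8 and 395 CPM. *CXCR4*, at 248, 284, 232, 365 and 264 CPM, was likewise highest in these 5. *ZBTB16* was at 10.8 to 14.1 CPM and *DDIT4* at 92.4 to 185 CPM in them, but other heifers reached these levels, such as 604 with 12.9 CPM of *ZBTB16* and 159 CPM of *DDIT4*. These heifers were picked out by their values, so the agreement of the genes in them is a description without a test.

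**Figure D3:**
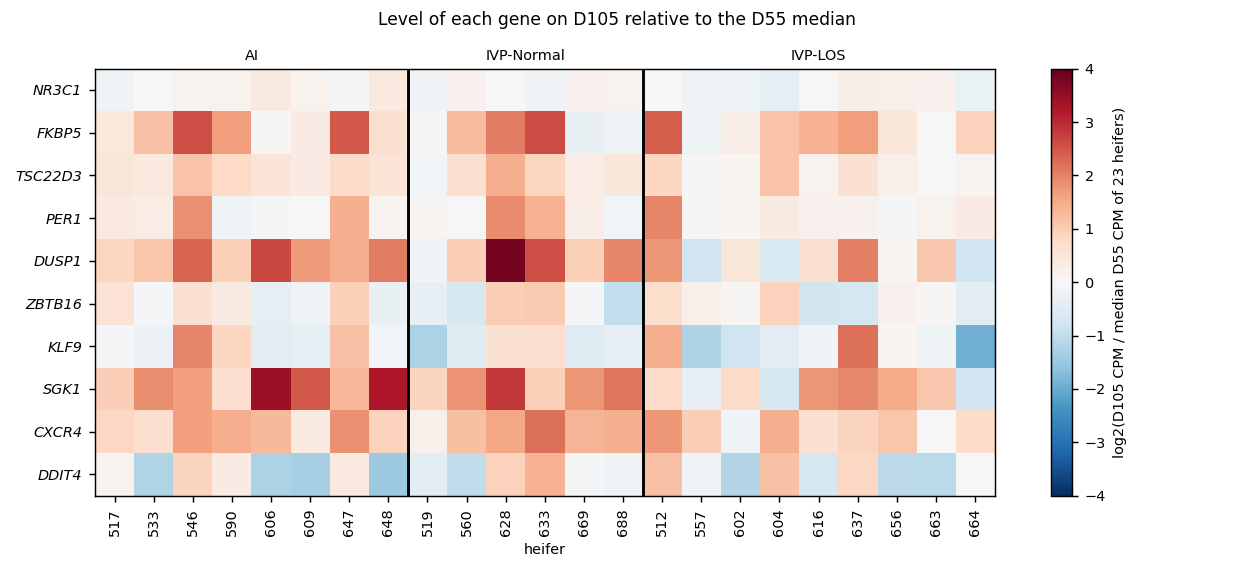
Level of the 10 genes on D105 in each heifer as log2 of its CPM over the median D55 CPM of the 23 heifers, with heifers ordered by group and number. Columns 546, 647, 628, 633 and 512 are red in *FKBP5*, *PER1* and *CXCR4*, and *SGK1* is deepest in columns 606 and 648, where *DDIT4* is blue.

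Summed neutrophil marker levels of these 5 heifers on D105 were 3151, 1797, 4695, 2045 and 983 CPM, within the range of the other heifers. In heifer 512 the sum was lower on D105 (983 CPM) than on D55 (1125 CPM), while *FKBP5* went from 211 to 672 CPM and *PER1* from 41.7 to 109.6 CPM. In heifer 637, with the highest sum of all, *PER1* was at 32.1 CPM and *FKBP5* at 394 CPM. The sum is set mainly by its most counted markers, so a lower sum does not show that every neutrophil marker was lower. Heifers 512 and 637 were picked out by their values, and the part of neutrophils in these levels was not tested.

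*SGK1* was highest in other animals. On D105 it reached 610 CPM in heifer 606, 540 CPM in 648, 408 CPM in 628 and 313 CPM in 609. Of these 4, heifers 606, 648 and 609 had *FKBP5* at 128.3, 192.5 and 154.8 CPM and *PER1* at 27.4, 30.8 and 28.6 CPM, in the low range of both genes. The same 3 AI heifers had the 3 lowest levels of *DDIT4* among all D105 libraries, at 29.3, 25.2 and 28.1 CPM, where their D55 levels had been 45.3, 78.0 and 89.8 CPM. Heifer 628 alone was high in both, with *DUSP1* and *TSC22D3* also at their highest there, at 1607 and 1723 CPM.

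On D55 the levels of *FKBP5* were again uneven. Heifers 590 (446 CPM), 628 (350 CPM), 663 (304 CPM) and 512 (211 CPM) were high, and the other 19 lay between 92.4 and 158 CPM. Heifers 628 and 512 were thus high on both days, and heifer 590, at 395 CPM on D105, stayed above the D105 median of 234 CPM. Heifer 663 went the other way, from 304 to 124.3 CPM, and its *CXCR4* was at 114.5 and 78.2 CPM, its *KLF9* at 9.82 and 3.81 CPM and its *DDIT4* at 91.0 and 33.1 CPM on D55 and D105. Of 10 correlations between days on the log2 scale, none passed adjustment, with the largest for *KLF9* (Pearson r = 0.50, Spearman rho = 0.53, adjusted p = 0.143 and 0.102, permutation test, n = 23). For *FKBP5*, r was 0.23 and rho 0.15 (adjusted p = 0.369 and 0.536, permutation test).

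Which of the genes varied together was examined on each day over the 23 heifers, with 18 relations of *FKBP5* adjusted together. All D55 libraries carry the name New. On D55 *FKBP5* varied with *DDIT4* (r = 0.70, rho = 0.57, adjusted p = 0.000630 and 0.0167, permutation test, n = 23), with *PER1* (r = 0.69, rho = 0.48, adjusted p = 0.000870 and 0.0451, permutation test), with *TSC22D3* (r = 0.68, rho = 0.46, adjusted p = 0.000684 and 0.0499, permutation test) and with *KLF9* (r = 0.66, rho = 0.64, adjusted p = 0.00118 and 0.00840, permutation test). Without heifers 590 and 628, the farthest from the median of *FKBP5*, r was 0.50 for *DDIT4*, 0.55 for *PER1*, 0.47 for *TSC22D3* and 0.64 for *KLF9*. The adjusted p was then 0.0401, 0.0273, 0.0635 and 0.00567 (permutation test). Spearman's rho without them was 0.44, 0.32, 0.28 and 0.64 in the same order, with adjusted p of 0.129, 0.254, 0.292 and 0.0163 (permutation test). Of the 4 relations, without the 2 heifers that with *KLF9* passed in both measures, those with *DDIT4* and *PER1* passed in r only, and that with *TSC22D3* passed in neither. Leaving out the 2 heifers also narrows the range of *FKBP5*, so a lost call does not show that a relation lay in them alone. *CXCR4* had r = 0.59 and rho = 0.43 (adjusted p = 0.00401 and 0.0634, permutation test), and r = 0.33 without the 2 heifers. With *DUSP1*, r was 0.33 and rho 0.55 (adjusted p = 0.178 and 0.0167, permutation test), and without the 2 heifers r was 0.42 and rho 0.58 (adjusted p = 0.0933 and 0.0272, permutation test). With *NR3C1* the relation was r = 0.31 and with *SGK1* r = 0.04, neither past adjustment (p = 0.196 and 0.864, permutation test).

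Over the 23 heifers on D105 *FKBP5* varied with *KLF9* (r = 0.75, rho = 0.73) and *TSC22D3* (r = 0.72, rho = 0.74). Adjusted p was 0.000630 for r and 0.00126 for rho in both (permutation test). *PER1* (r = 0.78), *DDIT4* (0.66), *CXCR4* (0.62) and *ZBTB16* (0.55) also passed in both measures, unlike *DUSP1*, *NR3C1* and *SGK1*. Without heifers 633 and 546, the farthest from the median of *FKBP5*, only *KLF9* (r = 0.70) and *TSC22D3* (r = 0.67) passed in both. Heifer 637 had the highest *KLF9* level, 19.8 CPM, with *FKBP5* at 394 CPM, and the relations were not repeated without it. The heifers fell into 2 clusters by *PER1*, so relations were also taken within the 18 heifers of the lower cluster. There none of the 9 relations passed adjustment. *KLF9* (r = 0.54, rho = 0.50) and *TSC22D3* (r = 0.52, rho = 0.55) had the smallest adjusted p, 0.112 and 0.123 for r (permutation test, n = 18), and *PER1* itself had r = 0.15. These 18 heifers were picked by their *PER1* values, which also took out the 5 highest values of *FKBP5* and *CXCR4*. That narrows the range of these genes, so the test among the 18 cannot decide whether a graded relation holds. The joint highest levels of *FKBP5* and *PER1* on D105 lay in the 5 heifers.

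Relations of *SGK1* were examined after its values were seen, with 18 of them adjusted together. On D55 it varied with *DUSP1* (r = 0.78, rho = 0.78, adjusted p = 0.000240 and 0.000540, permutation test, n = 23), and r was 0.80 without the 2 heifers farthest from its median. With *CXCR4*, r was 0.54 and rho 0.55 on that day (adjusted p = 0.0333 and 0.0270, permutation test). Without those 2 heifers r was 0.43 and rho 0.44, which no longer passed (adjusted p = 0.161 and 0.103, permutation test). With *KLF9*, r was 0.48 and rho 0.63 (adjusted p = 0.0716 and 0.00783, permutation test), and 0.55 and 0.64 without them (adjusted p = 0.0461 and 0.0130, permutation test). *KLF9* thus varied with both *FKBP5* and *SGK1* on D55, the latter in rank. On D105 it varied with *DUSP1* again (r = 0.77, rho = 0.72, adjusted p = 0.000240 and 0.00162, permutation test, n = 23) and with the receptor gene *NR3C1* (r = 0.80, rho = 0.73, adjusted p = 0.000180 and 0.000990, permutation test). Without heifers 604 and 664, the farthest from the median of *SGK1*, r was 0.67 for *DUSP1* and 0.71 for *NR3C1*. Within the set BACKUP (n = 17) r was 0.83 and 0.85, and within the set New (n = 6) it was 0.63 and 0.53, where neither passed the exact permutation test (p = 0.172 and 0.293). With *DDIT4* on D105, r was -0.39 and rho -0.41 over the 23 heifers (adjusted p = 0.198 and 0.159, permutation test). Neither passed adjustment. Among the 18 heifers low in *PER1*, r was 0.90 for *DUSP1*, 0.86 for *NR3C1* and -0.58 for *DDIT4*. These 18 heifers were picked by their *PER1* values, so the relations among them are a description without a test. On D55 *SGK1* and *NR3C1* had r = 0.37 and rho = 0.23 (adjusted p = 0.198 and 0.420, permutation test).

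**Figure D4:**
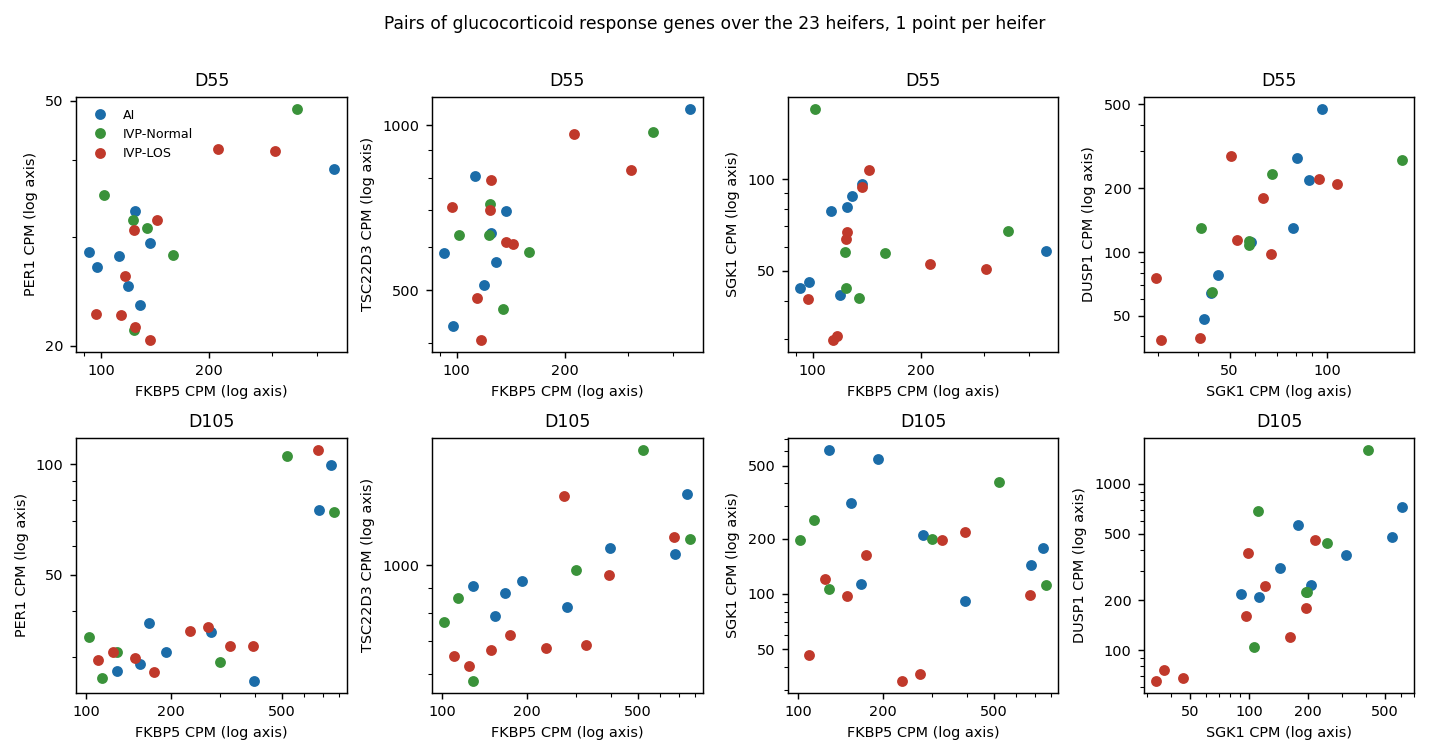
CPM of *FKBP5* against *PER1*, *TSC22D3* and *SGK1*, and of *SGK1* against *DUSP1*, on log axes, with D55 in the upper and D105 in the lower row and 1 point per heifer coloured by group. *PER1* on D105 shows 18 heifers at 25.7 to 37.1 CPM and 5 at 74.1 to 109.6 CPM, and *DUSP1* climbs with *SGK1* on both days.

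The profile of *FKBP5* was compared with those of 13856 genes with a mean of at least 1 CPM, over the 46 libraries after subtraction of the 6 group-by-day means. The 5 genes most like it were *MLXIP* (Pearson r = 0.88), a glucose-sensing transcription factor, *CDKN1A* (0.84), the cell cycle inhibitor p21, *SCML4* (0.81), *ADCY3* (0.79), an adenylyl cyclase, and *SOCS1* (0.78), a suppressor of cytokine signalling. Of the 10 genes, *PER1* ranked 9th (r = 0.76), *DDIT4* 15th (0.72), *KLF9* 22nd (0.72), *TSC22D3* 32nd (0.70) and *CXCR4* 91st (0.60) in likeness to *FKBP5*. *ZBTB16* and *DUSP1* followed at ranks 594 and 650, while *NR3C1* (r = 0.01, rank 6633) and *SGK1* (r = -0.07, rank 8358) lay in the middle of all genes. The 5 genes most like *NR3C1* were *USP9X*, a deubiquitinase, *N4BP1*, *AFF4*, a transcription elongation factor, *TAOK1*, a kinase, and *TNKS2*, a tankyrase, with r from 0.85 to 0.87. *SGK1* had the highest rank of the 10 in likeness to *NR3C1* (r = 0.62, rank 648). These values describe 46 libraries from 23 animals and share depth and cell makeup, and they carry no test.

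The wider pathway was followed with fixed gene lists over the 23 heifers, each read against the 11.7% of genes called higher and the 8.76% called lower on D105. Of 21 tested genes for the receptor's chaperones, cofactors and hormone handling, 1 was higher and 1 lower (median log2 difference 0.02). *ABCB1*, an efflux pump that exports corticosteroids, was higher by 0.32 ± 0.11 (SE). *MED1* and *HSP90AA1*, a coactivator subunit and the main chaperone, had log2 differences of -0.19 and 0.29 with FDR values of 0.0544 and 0.0630 (edgeR). The other 3 genes of this list, *NR3C2* (the mineralocorticoid receptor), *HSD11B1* and *HSD11B2*, did not pass the filter on low counts.

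Of 37 other genes known to be induced by glucocorticoids, 20 were higher and 1 was lower on D105 (median log2 difference 0.47). The 4 with the smallest p were *CRISPLD2* (4.19 ± 0.45), a secreted protein, *GADD45A* (1.41 ± 0.18), a stress sensor, *IRS2* (1.12 ± 0.16), an adaptor of the insulin receptor, and *GADD45B* (0.48 ± 0.07). The median level of *CRISPLD2* was 2.27 CPM on D55 and 73.2 CPM on D105, a difference of the size seen in the neutrophil markers *CXCR1* and *MMP9*. *ERRFI1* was the gene that was lower (-0.39 ± 0.09). *ALOX15B* had a median of 0 CPM on both days and did not pass the filter on low counts.

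Of 14 tested genes known to be repressed by glucocorticoids, 9 were higher on D105 and 0 were lower (median log2 difference 0.74). *FAS* (1.10 ± 0.13), a death receptor, *IL1B* (3.03 ± 0.40), an inflammatory cytokine, and *CXCL8* (1.84 ± 0.28), the chemokine of neutrophils, were among the higher genes. Both the list of induced and the list of repressed genes thus held more calls higher than lower on D105.

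Of 20 immediate early genes, which many stimuli and sample handling raise within minutes, 10 were higher and 1 was lower (median log2 difference 0.49). The smallest p belonged to *ZFP36* (0.69 ± 0.11), *NR4A2* (0.75 ± 0.14), *IER5* (0.44 ± 0.08) and *FOSL2* (0.92 ± 0.20), and *KLF2* was the gene that was lower. *DUSP1* and *SGK1* are commonly counted among rapid response genes too, and the part of handling in their change was not tested.

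Of 17 tested clock genes other than *PER1*, 1 was higher and 2 were lower (median log2 difference 0.00). *NFIL3*, also on the list of induced genes, was higher by 1.84 ± 0.28, and *BHLHE40* and *TEF* were lower, by -0.42 ± 0.09 and -0.24 ± 0.07 (SE). *PER2*, the nearest relative of *PER1*, differed by 0.04 with an FDR of 0.802 by edgeR. With all heifers in the fit, no gene of any of these lists was called in a comparison between treatment groups.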

How the data were processed

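The authors trimmed the reads (RNA of buffy coat leukocytes, libraries and sequencing by a service provider), aligned them with HISAT2 2.1.0 to ARS-UCD1.2 and counted them with HTSeq. The files deposited are 2 tables of unnormalized counts of reads on each gene. The RefSeq table was used, and its summary rows (reads on no gene, 23.2% to 38.0%) were left out of library totals. The Ensembl table was not used because its identifiers are not paired with symbols.

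Counts were tested in R 4.3.3 with edgeR 4.0.16 (TMM scaling, filterByExpr with a minimum count of 10, quasi-likelihood F-test, Benjamini-Hochberg over all tested genes, FDR of at most 0.05 called). Each fit held only the compared groups, and each sample was placed by the group in its label. SE is the log2 fold change over the square root of F. DESeq2 1.42.0 was an alternative. The scripts were tested on simulated data. The authors state RUVseq factors without their number, and none were used.

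The 2 libraries of each heifer come from the same animal. After subtraction of group means they correlated at a mean r of 0.54 (0.29 to 0.84), against -0.02 for different heifers, so a fit with the heifer as a replicate block was made. It is printed where it changed a call. Correlations used log2(CPM + 1) and 100000 permutations (exact for 6 heifers), two-sided. The heifers are separate animals, 1 library per day.

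The 10 genes and all lists were chosen with earlier results of these data known, so no list is independent evidence. Named genes are the 10, up to 4 genes per list with the smallest p between days, called list genes between groups, and the 5 most like *FKBP5* and *NR3C1*. *ERRFI1*, *KLF2*, *PER2*, *MMP8*, *CAMP* and the genes of a list that could not be tested are named beyond this rule, after their values were seen, and 2 genes that the rule would name are not reported here. No sequence is shown because none was at hand for this build.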

Additional observations from a re-analysis of the deposited data

Results flagged for a closer look

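In each of the 60 combinations of gene, group and day, the highest and the lowest heifer were compared with the rest by Dixon's ratio, and 8 stood apart. For normally distributed values chance alone flags about 1 group in 20. The ratio was taken on CPM without a log scale, where that rate need not hold, and all 8 flags were for the highest heifer. On D55 heifer 590 stood apart in the AI group for *FKBP5* (446 CPM) and *DDIT4* (163 CPM). Heifer 628 stood apart among IVP-Normal heifers on D55 for *FKBP5* (350 CPM) and *ZBTB16* (14.1 CPM), and heifer 669 for *SGK1* (170 CPM). On D105 heifer 512 stood apart in IVP-LOS for *PER1* (110 CPM) and, just past the limit, for *FKBP5* (672 CPM), and heifer 546 in AI for *KLF9* (16.9 CPM), also just past the limit. No result was marked for a difference in change between groups.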

How the results depend on the processing

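The Ensembl alternative was not run. Over all 23 heifers 6 genes were called under every setting run, including the replicate block and each heifer left out. Within AI, 3 were called, 5 with the replicate block, 2 with all 46 libraries in the fit (where *TSC22D3* had an FDR of 0.0699 by edgeR), and 1 to 4 with 1 heifer left out. Within IVP-Normal, 0 were called, 3 with the replicate block, 3 with edgeR's likelihood ratio test, 2 with DESeq2, 2 with all 46 libraries in the fit, and 0 to 1 with 1 heifer left out. Within IVP-LOS, 0 were called and 1 with DESeq2. The block changed no call over all heifers, within IVP-LOS or between changes. Between groups and between changes 0 were called under every setting run. The cause of these differences was not tested. The correlation of *FKBP5* with *ZBTB16* on D105 changed sign within the 18 heifers low in *PER1* (r = -0.0295), where its adjusted p was 0.958 (permutation test). Small groups, the confounding of day with set, and 21 to 400 reads on *KLF9* limit precision.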
